A study of Mus musculus with 2 samples.

Results

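Fibroblasts of the mouse colon that carry markers of the layer beneath the epithelium, with high Pdgfra and low Nrg1, were chosen by their counts of 11 genes in 2 single-cell libraries. A count is a unique molecular identifier (UMI), which stands for 1 captured RNA molecule. A barcode was kept with at least 500 detected genes and at most 10% of its UMIs from mitochondrially encoded genes. A kept cell was selected when at least 4 of 8 markers (Sox6, Bmp3, Bmp5, Bmp7, F3, Foxl1, Wif1 and Procr) had a UMI, Pdgfra had at least 1 UMI, and Myh11 and Nrg1 each had fewer than 3. The rule found 1489 cells, here called Nrg1-low cells, among 19463 kept barcodes. They were 420 of 8413 barcodes in the Cre library and 1069 of 11050 in the control library. Cells that met the rule except for 3 or more UMIs of Nrg1, here called Nrg1-high cells, numbered 32 in the Cre library and 267 in the control library. Other fibroblasts, 6784 in the Cre library and 7939 in the control library, had at least 2 UMIs of at least 3 of 6 fibroblast genes, fewer than 4 of the 8 markers and no marker pair of another cell type.

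The study concerned IL-10 signalling in fibroblasts and, by its title, type I interferon. The Cre group, Il10ra ff; Pdgfra-cre, carried floxed Il10ra alleles and a Cre recombinase driven by Pdgfra, a gene active in most colonic fibroblasts. The control group, Il10ra ff, carried the same floxed alleles without Cre. Per the series' design text each group had 2 mice of 6 months of age, from whose whole colons living stromal cells were sorted as Podoplanin+ CD45- CD31- EpCAM- 7AAD-, and each genotype gave 1 library. The mice of a genotype cannot be told apart in its library, so no difference between genotypes has a replicate check and none was tested.

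Fibroblasts directly beneath the colonic epithelium wrap the crypts and are known as a source of BMP ligands and of WNT5A near the crypt tops, where BMP signalling accompanies the maturation of epithelial cells. Deeper fibroblasts make BMP antagonists such as GREM1 and the WNT amplifier RSPO3, which sustain the stem cells of the crypt base. NRG1 is a ligand of ErbB receptors on epithelial cells. IL-10 signals through STAT3 and restrains inflammatory gene expression. Type I interferons act on genes through the interferon-stimulated response element, and interferon gamma through the gamma-activated site.

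Nrg1-low cells held 3362249 UMIs in the Cre library and 8287041 in the control library, with a median of 7048 UMIs per cell in the Cre library and 6929 in the control library. The median mitochondrial share was 1.72% in Cre and 1.31% in control Nrg1-low cells, against 1.19% and 1.2% in the other fibroblasts of the same libraries. Levels below are pooled CPM, the UMIs of a gene per 1000000 UMIs of all cells of a pool, and log2 ratios were taken with 1 CPM added. Intervals are exact, at 95%, and cover counting error only. The libraries shared 115 barcode sequences, of which 0 were Nrg1-low cells in both. Il10ra had 0 UMIs in Cre and 1 UMI in control Nrg1-low cells, so its deletion could not be checked. Among markers of other cell types, Ptprc, Cdh5, Sox10 and Gfap had 0 UMIs in Nrg1-low cells of both libraries, while Cdh5 had 0 in other fibroblasts too. The full lists summed to 18 UMIs in Cre and 19 in control Nrg1-low cells for leukocytes, 47 and 100 for blood endothelium and 11 and 7 for glia. In CPM these sums were 5.35 and 2.29 for leukocytes, 13.98 and 12.07 for blood endothelium and 3.27 and 0.845 for glia. The 5 smooth muscle markers summed to 141 CPM in Cre and 122 CPM in control Nrg1-low cells, against 38.7 and 49.4 CPM in other fibroblasts and 7628 and 7254 CPM in smooth muscle cells. The pericyte markers summed to 117 and 93.6 CPM, against 67.2 and 35.2 CPM in other fibroblasts, and the markers of interstitial cells of Cajal to 91.3 and 109.7 CPM, against 17.8 and 21.4 CPM. These lists thus stood higher in Nrg1-low cells than in other fibroblasts. Mesothelial markers summed to 33.3 CPM in Cre and 34.3 CPM in control Nrg1-low cells, against 0.847 and 0.941 CPM, and 1 cell held 110 of their 112 UMIs in Cre Nrg1-low cells. Epithelial markers summed to 3.87 and 13.8 CPM, against 0.829 and 0.706 CPM. Cells with a marker pair of another type, smooth muscle aside, were left out of the other fibroblasts and not of the Nrg1-low cells. Such a pair was held by 13 Cre and 25 control Nrg1-low cells, so the contrasts in pericyte, Cajal, mesothelial and epithelial markers are partly set by the selection.

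The genes of the selection rule are described first, with no test, because they chose the cells. Sox6, a transcription factor of the SOX family, had 1043 CPM in Cre and 891 CPM in control Nrg1-low cells, against 3.67 and 11.6 CPM in other fibroblasts. Wif1, which encodes a secreted inhibitor that binds WNT proteins, had 301 CPM in Cre and 168 CPM in control Nrg1-low cells, against 0.141 and 0.235 CPM in other fibroblasts. The rule set this contrast, since other fibroblasts had to hold fewer than 4 markers. In Nrg1-high cells, which met the rule but for Nrg1, a UMI of Sox6 was found in 90.6% of Cre and 73% of control cells, and a UMI of Wif1 in 37.5% and 13.9%. Bmp3, which encodes a BMP family member that dampens BMP signalling, stood at 249.5 CPM in Cre and 188 CPM in control Nrg1-low cells, against 3.03 and 3.62 CPM. Bmp5, a BMP ligand, stood at 863 and 816 CPM, against 50.9 CPM in Cre and 116 CPM in control other fibroblasts. Bmp7, a further BMP ligand, stood at 244 and 261 CPM, against 8.82 CPM in Cre and 29.2 CPM in control other fibroblasts. Bmp5, Bmp7 and Sox6 thus had lower levels in Cre than in control other fibroblasts, and in Nrg1-low cells Cre and control lay close together. Nrg1-low cells were picked for UMIs of these markers, so their closeness there is partly set by the rule and nothing is drawn from it.

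F3, which encodes tissue factor, had 805 CPM in Cre and 707 CPM in control Nrg1-low cells, against 94.5 and 70.3 CPM in other fibroblasts. Procr, which encodes the endothelial protein C receptor, had 1117 and 866 CPM, against 23 and 15.2 CPM. Foxl1, a forkhead factor known to mark telocytes of the gut, had 40.5 and 39.7 CPM, against 1.59 and 3.04 CPM. A UMI of Foxl1 was found in 23.8% of Cre and 22.4% of control Nrg1-low cells, against 1.19% and 1.88% of other fibroblasts, whose median depths were 7924.5 and 6735 UMIs. Pdgfra, the PDGF receptor alpha chain, stood at 1125 CPM in Cre and 905 CPM in control Nrg1-low cells, against 289 and 247 CPM in other fibroblasts, 79.8% and 71.5% of which had a UMI of it. Nrg1 stood at 31.5 CPM in Cre and 51.4 CPM in control Nrg1-low cells, against 847 and 1076 CPM in Nrg1-high cells and 10.3 and 55.4 CPM in other fibroblasts. A UMI of Nrg1 was found in 18.3% of Cre and 31.1% of control Nrg1-low cells, against 3.89% and 7.2% of other fibroblasts, so Nrg1 was low against Nrg1-high cells and not against other fibroblasts. The rule used Pdgfra and Nrg1, so their levels are no check of the label, and the place of the cells in the tissue was not measured.

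Nrg1-low cells were a smaller share of fibroblasts in the Cre library. They made up 5.80% (interval 5.28 to 6.37) of 7236 fibroblasts in the Cre library, against 11.5% (10.9 to 12.2) of 9275 in the control library, where fibroblasts are the Nrg1-low, Nrg1-high and other fibroblasts together. When every cell was first thinned to 3000 UMIs, the shares were 6.10% and 10.5%. Nrg1-high cells were 7.08% (4.89 to 9.85) of 452 cells of both Nrg1 classes in the Cre library, against 20% (17.9 to 22.2) of 1336 in the control library. No UMI of Nrg1 was seen in 343 of the 420 Cre and 737 of the 1069 control Nrg1-low cells. The selection counts genes whose levels differed between the libraries in other fibroblasts, and the cells had been sorted on Podoplanin. Fewer such cells in the colon, less RNA of the markers per cell and an uneven yield of the sort cannot be told apart.

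Values just inside and outside the threshold show how the other genes change with the number of markers. Cells with 3 of the 8 markers, just outside, numbered 133 in the Cre and 373 in the control library, and those with 4, just inside, numbered 63 and 196. Acta2, the smooth muscle actin gene, had 289 CPM in Cre and 206 CPM in control cells with 4 markers, against 146 and 60.1 CPM in cells with 3. With 5 markers Acta2 had 1001 CPM in Cre and 812 CPM in control cells, and with 8 it had 2242 and 1557 CPM. Grem1 had 362 CPM in Cre and 85.8 CPM in control cells with 4 markers, 76.6 and 45.5 CPM with 5, 14.7 and 14.1 CPM with 7, and 41.7 and 61.4 CPM with 8. In Acta2 the cells with 4 markers therefore lay between those with 3 and those with 5, and in the Cre library their Grem1 was close to that of cells with 3, at 357 CPM. At the Nrg1 threshold, 29 Cre and 94 control cells had 2 UMIs of Nrg1 and 14 and 50 had 3. Ednrb, a receptor of endothelins, had 225 and 261 CPM in those with 2 UMIs, against 262 and 134 CPM in those with 3. Bmp2 had 355 and 581 CPM with 2 UMIs, against 385 and 592 CPM with 3, so no step in Bmp2 stood at this threshold.

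**Figure D1:**
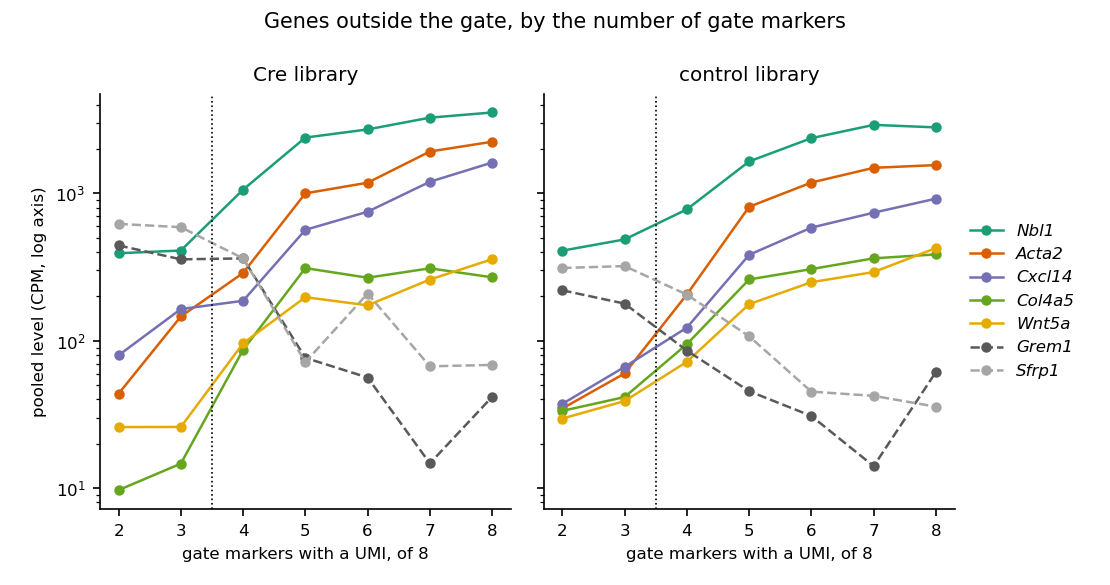
Pooled levels (CPM, log axis) of 7 genes that the rule did not use, by the number of the 8 markers with a UMI, in the Cre library (left) and the control library (right); the dotted line is the threshold of 4 markers. Nbl1, Acta2, Cxcl14, Col4a5 and Wnt5a are higher, and Grem1 and Sfrp1 lower, in cells with 5 or more markers than in cells with 3.

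Nrg1-low cells differed from other fibroblasts in many genes beyond the rule. Of 9242 genes measured outside the rule (a mean of at least 10 CPM over the pools), 451 were at least 2-fold higher in both libraries, or 4.88%, and 326 were at least 2-fold lower in both, or 3.53%. At 1.5-fold, the threshold used for gene lists below, 985 genes (10.7%) were higher and 557 (6.03%) lower in both libraries. The cells were chosen within this same contrast, so these shares are a background to read the lists by, and nothing is drawn from them. The median log2 ratio over all 9242 genes was 0.26 in the Cre and 0.18 in the control library.

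Contractile genes stood higher as a group. Of 19 measured outside the rule, 16 were at least 1.5-fold higher in Nrg1-low cells than in other fibroblasts in both libraries and 1 was lower, with a median log2 ratio of 2.10 in the Cre and 1.68 in the control library. Acta2 had 1418 CPM in Cre and 1025 CPM in control Nrg1-low cells, against 30 and 34.6 CPM in other fibroblasts. Tagln, which encodes transgelin, an actin-binding protein, had 1054 and 797 CPM, against 26.6 and 22.3 CPM. Myl9, a myosin light chain, had 651 and 579.6 CPM, against 30.7 and 25.8 CPM. These genes stood apart from other fibroblasts in both libraries and below smooth muscle, where Acta2 had 10059 CPM in Cre and 10245 CPM in control cells. Pdlim3, a PDZ and LIM protein of the contractile apparatus, had 611 CPM in Cre and 598 CPM in control Nrg1-low cells, against 20.6 and 53.4 CPM. Tpm2 (a tropomyosin), Cald1 (caldesmon) and Itga1 (an integrin that binds collagen) were likewise higher, at 424, 1084 and 174 CPM in Cre and 493, 1036 and 118 CPM in control Nrg1-low cells. Their levels in other fibroblasts were 91.2, 381 and 25.1 CPM in the Cre and 153, 434 and 19.6 CPM in the control library. The lower gene was Des, the muscle filament desmin, with 5.65 CPM in Cre and 10.3 CPM in control Nrg1-low cells, against 17.7 and 21.6 CPM in other fibroblasts. Myh11, smooth muscle myosin, was capped by the rule and had 26.5 and 38.1 CPM, against 4295 and 3956 CPM in smooth muscle cells. The contractile set of Nrg1-low cells thus held actin, transgelin, myosin light chain and tropomyosin with little desmin.

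**Figure D2:**
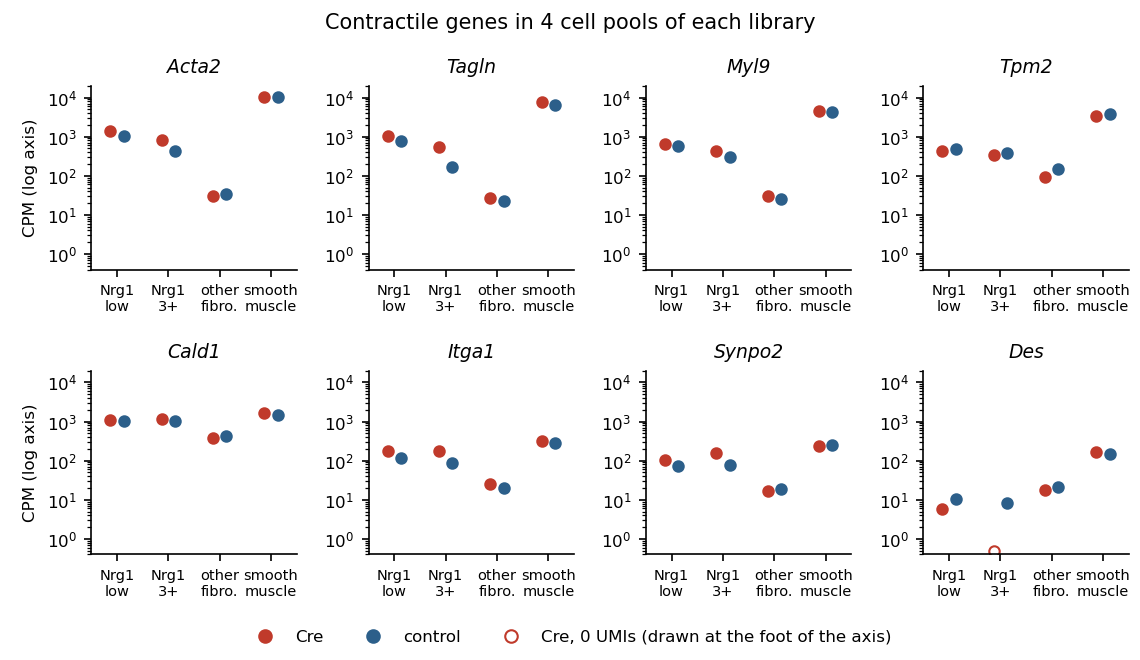
Pooled levels (CPM, log axis) of 8 contractile genes in Nrg1-low cells, cells with 3 or more UMIs of Nrg1, other fibroblasts and smooth muscle cells of the Cre library (red) and the control library (blue); each point is 1 pool. Acta2, Tagln and Myl9 of Nrg1-low cells lie above other fibroblasts and below smooth muscle, and Des lies below both.

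Among BMP ligands outside the rule, Bmp2 and Bmp4 were higher and Gdf10 lower in Nrg1-low cells, of 4 measured. Bmp2 had 188 CPM in Cre and 412 CPM in control Nrg1-low cells, against 50.1 and 83.5 CPM in other fibroblasts. Bmp4 had 887 and 1061 CPM, against 361 and 515 CPM. Gdf10, a relative of Bmp3, had 7.14 and 4.22 CPM, against 60.1 and 30.9 CPM. Of 7 BMP antagonists, 2 were higher and 3 lower in both libraries. Nbl1, which encodes a secreted antagonist of the DAN family, had 2716 CPM in Cre and 2088 CPM in control Nrg1-low cells, against 459.7 and 498 CPM in other fibroblasts. Twsg1, a modulator that binds BMPs together with chordin, had 297 and 350.3 CPM, against 93.8 and 135 CPM. Grem1 had 90.1 CPM in Cre and 43.2 CPM in control Nrg1-low cells, against 432 and 225 CPM in other fibroblasts, and Chrdl1 and Fstl1 were the other lower antagonists. Nrg1-low cells therefore had more RNA of Bmp2, Bmp4 and the antagonist Nbl1, and less of Grem1, than other fibroblasts. In cells thinned to equal depth, a UMI of Bmp2 was found in 31.4% of Cre and 47.1% of control Nrg1-low cells. In Nrg1-high cells it was found in 56.2% and 67%, so Bmp2 was not particular to Nrg1-low cells. Nbl1 was found in 94.8% and 92.1% of thinned Nrg1-low cells, against 90.6% and 82% of Nrg1-high cells.

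Of 9 WNT ligands and R-spondins measured, 1 was higher and 3 were lower in both libraries. Wnt5a, a ligand of noncanonical WNT signalling, had 218 CPM in Cre and 226 CPM in control Nrg1-low cells, against 25.8 and 26.5 CPM in other fibroblasts. Wnt4 had 147 and 173 CPM, against 61.9 CPM in Cre and 163 CPM in control other fibroblasts, so it was higher in the Cre library only. Rspo3 had 20.5 CPM in Cre and 3.62 CPM in control Nrg1-low cells, against 64.3 and 22.7 CPM, and a single cell gave 30.4% of its 69 UMIs in Cre Nrg1-low cells. Of 5 WNT antagonists outside the rule, 2 were higher and 3 lower. Dkk3, a divergent member of the Dickkopf family, had 299.8 and 364 CPM, against 144 and 162 CPM. The secreted frizzled-related genes stood the other way, with Sfrp1 at 148 CPM in Cre and 88.6 CPM in control Nrg1-low cells, against 612 and 321 CPM in other fibroblasts. In cells thinned to equal depth, a UMI of Wnt5a was found in 30% of Cre and 30.6% of control Nrg1-low cells. In Nrg1-high cells it was found in 46.9% and 39.7%, so Wnt5a was not particular to Nrg1-low cells.

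Of 12 hedgehog genes measured outside the rule, 3 were higher and 3 lower in both libraries. Their median log2 ratio was 0.31 in the Cre and 0.07 in the control library, and the higher genes were Ptch1, Foxf1 and Foxf2. Ptch1, the hedgehog receptor and itself a hedgehog target, had 307 CPM in Cre and 269 CPM in control Nrg1-low cells, against 84.2 and 99 CPM in other fibroblasts. Foxf1 and Foxf2, forkhead factors downstream of hedgehog in gut mesenchyme, had 256 and 139.8 CPM in Cre and 242 and 131 CPM in control Nrg1-low cells. Their levels in other fibroblasts were 91.2 and 23.1 CPM in the Cre and 114 and 34.9 CPM in the control library. Gli1, a hedgehog-responsive transcription factor, stood at 43.4 and 35.2 CPM, against 30.4 and 30.6 CPM, which is under 1.5-fold.

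Among ErbB ligands, Nrg2 and Btc were higher and Hbegf lower in Nrg1-low cells in both libraries, of 5 measured outside the rule. Nrg2, a second neuregulin gene, had 57.4 CPM in Cre and 62.3 CPM in control Nrg1-low cells, against 1.69 and 1.65 CPM in other fibroblasts. Btc, which encodes betacellulin, had 39 and 38.7 CPM, against 10.3 and 7.39 CPM. Ereg, which encodes epiregulin, had 128 CPM in Cre and 223 CPM in control Nrg1-low cells, against 606 and 929.5 CPM in Nrg1-high cells and 103 and 149 CPM in other fibroblasts. The cells low in Nrg1 thus held RNA of Nrg2, and their Ereg was below that of the Nrg1-high cells.

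**Figure D3:**
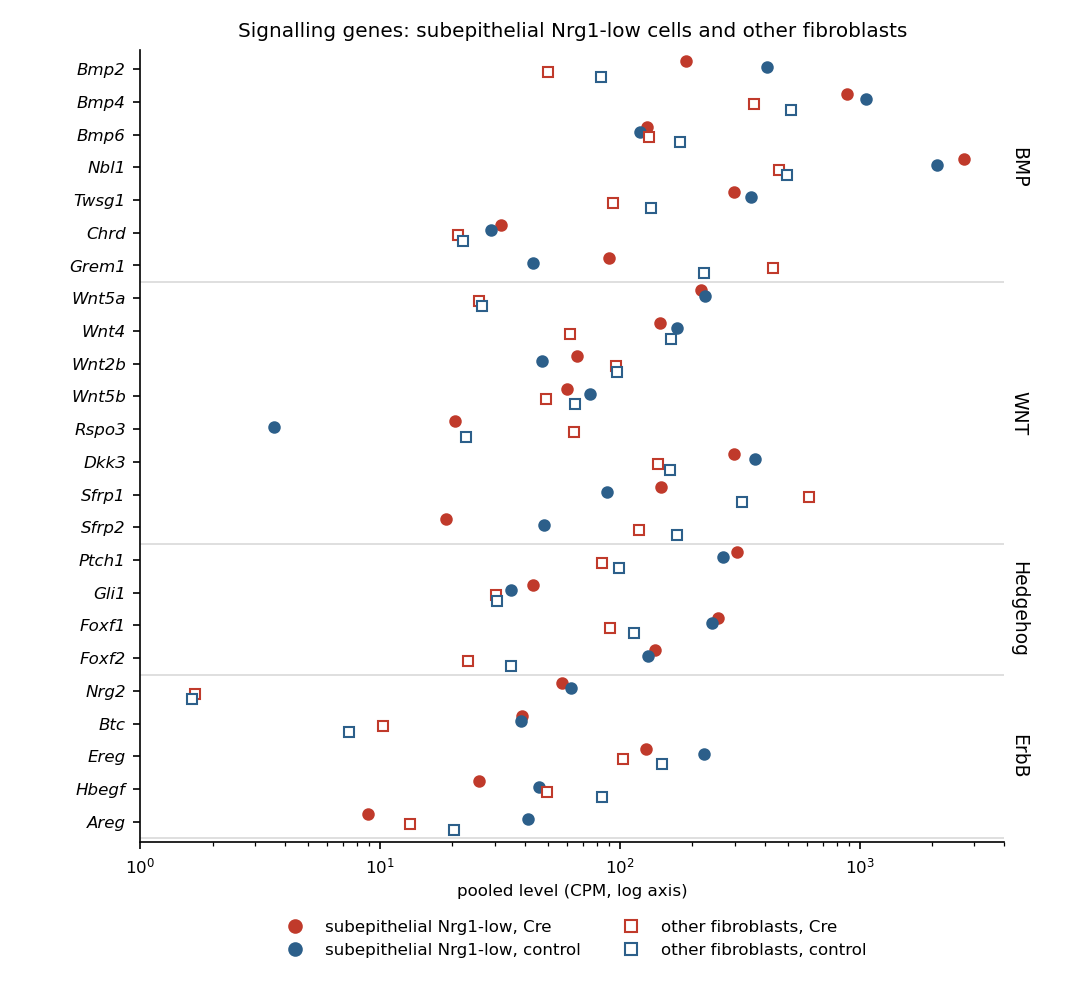
Pooled levels (CPM, log axis) of BMP, WNT, hedgehog and ErbB genes in Nrg1-low cells (filled circles) and other fibroblasts (open squares) of the Cre library (red) and the control library (blue). Wnt5a, Nbl1, Ptch1, Foxf2 and Nrg2 of Nrg1-low cells lie to the right of other fibroblasts in both libraries, and Grem1, Sfrp1 and Sfrp2 to the left.

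The 15 genes that stood highest over other fibroblasts in both libraries were Ednrb, Palmd, Pde1c, Tagln, Tspan13, Acta2, Htr1f, Cybrd1, Bean1, Ptpre, Casq2, Edn3, Nrg2, Myl9 and Irag1. Ednrb had 80.9 CPM in Cre and 136 CPM in control Nrg1-low cells, against 0.759 and 1.63 CPM in other fibroblasts. Its ligand gene Edn3 had 72.9 and 82.2 CPM, against 2.12 and 1.63 CPM. Ednra, the other endothelin receptor, had 299 and 239 CPM, against 43.7 and 49.6 CPM, so RNA of an endothelin and of both receptors was higher in the pool. Pde1c, which encodes a phosphodiesterase that breaks down cyclic nucleotides, had 236 and 145 CPM, against 4.04 and 2.55 CPM. Irag1, which encodes a substrate of cGMP-dependent kinase that restrains calcium release in smooth muscle, had 109.5 and 103 CPM, against 4.98 and 4 CPM. Casq2, which encodes a calcium-storing protein of muscle, had 67.8 and 121 CPM, against 0.494 and 4.02 CPM. Htr1f, a serotonin receptor gene, had 64.5 and 55.4 CPM, against 0.900 and 0.959 CPM. Of 20 measured genes of peptide, amine and purine signalling, 9 were higher and 6 lower in both libraries. In cells thinned to equal depth, a UMI of Ednrb was found in 11.3% of Cre and 19.7% of control Nrg1-low cells. In Nrg1-high cells it was found in 50% and 36.7%, so Ednrb was not particular to Nrg1-low cells. Edn3 stood the other way, in 12.3% and 16.7% of thinned Nrg1-low cells, against 0% and 4.49% of Nrg1-high cells.

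Matrix genes were split. Of 20 basement membrane genes, 6 were higher and 4 lower in both libraries. Col4a5 and Col4a6, chains of the type IV collagen network, had 260.2 and 137 CPM in Cre and 275 and 161 CPM in control Nrg1-low cells. In other fibroblasts these chains had 9.97 and 2.59 CPM in the Cre and 32.8 and 13.3 CPM in the control library, while Lama4 and Lamb1, laminin chains, were also higher in Nrg1-low cells. Of 36 fibrillar collagen and matrix genes, 6 were higher and 11 lower in both libraries. Ogn, which encodes osteoglycin, had 2589.6 CPM in Cre and 2598 CPM in control Nrg1-low cells, against 399 and 522 CPM in other fibroblasts. Col12a1, which encodes a collagen that lies along fibrils, had 499 and 509.5 CPM, against 134 and 221 CPM. Col14a1, which encodes a related collagen, stood the other way, at 124 and 158 CPM, against 886 and 793 CPM. Dcn, the proteoglycan decorin, had 3192 and 4937 CPM, against 13389.7 and 11366 CPM, and is among the genes that defined the other fibroblasts.

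Of 26 transcription factor genes of gut mesenchyme outside the rule, 11 were higher and 11 lower in both libraries. Their median log2 ratio was 0.23 in the Cre and 0.02 in the control library. Among the higher, Tcf4, a basic helix-loop-helix factor, had 1112 CPM in Cre and 1028 CPM in control Nrg1-low cells, against 194 and 233 CPM in other fibroblasts. Of 22 chemokine and cytokine genes, 5 were higher and 5 lower in both libraries. Cxcl14, which encodes a chemokine of barrier tissues, had 908 and 522 CPM, against 46.2 and 30.1 CPM. Il34, which encodes a ligand of the macrophage receptor CSF1R, had 153 and 106 CPM, against 10.8 and 17.3 CPM. Ccl11, which encodes an eosinophil attractant, stood the other way, at 128 and 107 CPM, against 640.4 and 364 CPM. Il33, an alarmin gene, had 15.2 and 5.67 CPM, against 86.7 and 41.3 CPM. Il11ra1, which encodes the receptor of the gp130 cytokine IL-11, had 683 CPM in Cre and 735 CPM in control Nrg1-low cells, against 215 and 225 CPM in other fibroblasts. Aldh1a1, which encodes an enzyme that makes retinoic acid, had 205 and 275 CPM, against 34.7 and 40.8 CPM. In cells thinned to equal depth, a UMI of Cxcl14 was found in 52.8% of Cre and 44.8% of control Nrg1-low cells. In Nrg1-high cells it was found in 59.4% and 55.1%, so Cxcl14 was not particular to Nrg1-low cells.

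The 12 genes that stood lowest under other fibroblasts were Pi16, Pcolce2, Myoc, Gdf10, Gpc3, Has1, Flrt2, Plcb4, Npy1r, Sfrp4, Ebf1 and C3. Pi16, a marker of adventitial fibroblasts, had 52.1 CPM in Cre and 78.1 CPM in control Nrg1-low cells, against 464 and 611 CPM in other fibroblasts, and 1 cell gave 30.3% of its UMIs in the Cre pool. C3, the central complement component, had 555 and 147 CPM, against 3199.6 and 824 CPM. Of 12 complement genes, 3 were higher and 6 lower in Nrg1-low cells in both libraries. Has1, a hyaluronan synthase gene, had 216 and 159 CPM, against 1311 and 979 CPM. Of 17 genes listed for the SOX6-positive stroma of human colon and measured outside the rule, 11 were higher and 2 lower in both libraries, with medians of 1.48 and 1.16. That list was put together from general knowledge of human studies, and some of its genes, such as Bmp2, are on other lists too. Sox6 is among the markers that chose the cells, so this contrast is partly set by the rule and is no check of the label.

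Nrg1-low cells were not uniform in Wif1. A UMI of Wif1 was found in 245 of the 420 Cre and 479 of the 1069 control cells, against 0.118% and 0.126% of other fibroblasts. In cells with Wif1, Acta2 had 1831 CPM in Cre and 1403 CPM in control cells, against 815 and 750.2 CPM in cells without it. Tagln had 1319 and 1160 CPM with Wif1, against 667 and 534 CPM without. Il11ra1 had 895 CPM in Cre and 1221 CPM in control cells with Wif1, against 374 and 382 CPM in cells without. Btc had 53.2 and 55.3 CPM with Wif1, against 18.3 and 26.7 CPM without. Genes that stood the other way included Igfbp4, which encodes an IGF-binding protein, at 232 and 248.5 CPM with Wif1, against 1695 and 1252 CPM without. Edil3, which encodes a secreted integrin ligand, had 14.5 and 26.7 CPM with Wif1, against 158 and 183 CPM without. Cells with Wif1 were those farther from the other fibroblasts in Acta2, Tagln and Igfbp4 in both libraries. Wif1 is itself 1 of the 8 markers, so the split is tied to the number of markers. Its level was 56.6 CPM in Cre and 11.4 CPM in control cells with 4 markers, and 613 and 337 CPM with 8. The genes of the split were ranked on the same cells, whose median depth was 7292 and 6690 UMIs with Wif1 and 6521 and 7324 UMIs without, and the split is a description.

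Between the genotypes, Nrg1-low cells of the Cre library stood higher in interferon, MHC class I, complement and chemokine genes. Of 9380 genes measured, 137 (1.46%) were at least 2-fold higher and 76 (0.810%) at least 2-fold lower in Cre than in control Nrg1-low cells. At 1.5-fold, 406 genes (4.33%) were higher and 281 (3.0%) lower. The median log2 ratio of all 9380 genes was 0.03. All these differences are between 1 library of each genotype and have no replicate check.

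Of 48 measured genes of the type I interferon response, 32 were at least 1.5-fold higher in Cre Nrg1-low cells and 0 were lower, and their median log2 ratio was 0.84. The same genes had a median of 0.98 between the other fibroblasts of the libraries. Ifit1, which encodes a protein that binds foreign RNA, had 51.8 CPM in Cre and 11 CPM in control Nrg1-low cells. Ifit3, a partner of Ifit1, had 106 and 41.5 CPM. Isg15, which encodes a ubiquitin-like protein, had 123 and 53.8 CPM. Ifi27 was an exception, at 69.3 CPM in Cre and 102 CPM in control Nrg1-low cells.

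Interferon gamma response genes, guanylate-binding proteins among them, stood higher still: 20 of 26 were at least 1.5-fold higher in Cre Nrg1-low cells and 0 were lower. Their median log2 ratio was 1.71, against 2.17 for the same genes in other fibroblasts. Iigp1, which encodes an immunity-related GTPase, had 519 CPM in Cre and 79.5 CPM in control Nrg1-low cells, a ratio of 6.52 (5.96 to 7.15). Gbp4 and Gbp5, guanylate-binding proteins, had 43.1 and 56.2 CPM in Cre and 6.03 and 12.3 CPM in control Nrg1-low cells. Cxcl9, a chemokine gene induced by interferon gamma, had 224 CPM in Cre and 24.5 CPM in control Nrg1-low cells. A UMI of Cxcl9 was found in 8.81% of Cre and 1.31% of control Nrg1-low cells, against 6.65% and 0.655% of other fibroblasts, and in Nrg1-low cells a single cell gave 34.1% and 68.5% of the UMIs. Cxcl9 was thus concentrated in few cells.

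Promoters of the 4 genes with the highest Cre over control ratio in the interferon and MHC class I lists that hold a core of the interferon-stimulated response element are shown, because they carry the letters through which type I interferons are known to act. Each line gives the 250 bases before the gene's start, on the gene's strand, from the RefSeq promoter table (build GRCm38.p6), with each core, GAAANNGAAA on either strand, in capitals.
Ifi207: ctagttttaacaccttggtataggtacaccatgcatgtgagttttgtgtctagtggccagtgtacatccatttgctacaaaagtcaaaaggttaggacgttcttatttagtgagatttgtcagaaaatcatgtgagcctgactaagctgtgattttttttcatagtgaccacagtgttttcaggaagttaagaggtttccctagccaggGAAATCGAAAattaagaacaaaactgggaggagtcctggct
Tgtp2: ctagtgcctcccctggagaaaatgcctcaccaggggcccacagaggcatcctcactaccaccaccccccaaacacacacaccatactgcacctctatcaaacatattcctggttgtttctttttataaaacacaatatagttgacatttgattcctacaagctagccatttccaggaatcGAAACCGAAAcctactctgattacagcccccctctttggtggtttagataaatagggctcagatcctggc
Ifit1: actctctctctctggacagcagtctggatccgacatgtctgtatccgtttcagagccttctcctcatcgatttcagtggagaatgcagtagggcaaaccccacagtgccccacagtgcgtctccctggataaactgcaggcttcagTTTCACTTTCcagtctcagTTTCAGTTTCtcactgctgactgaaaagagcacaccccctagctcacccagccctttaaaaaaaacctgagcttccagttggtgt
Gbp5: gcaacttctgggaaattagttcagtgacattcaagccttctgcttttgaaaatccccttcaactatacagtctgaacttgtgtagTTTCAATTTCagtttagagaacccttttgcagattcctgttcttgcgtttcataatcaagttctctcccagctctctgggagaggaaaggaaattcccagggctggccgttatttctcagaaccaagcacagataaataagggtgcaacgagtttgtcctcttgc
The Ifi207 sequence is chr1:173741810-173742059 on the minus strand, with 1 core that ends 31 bases before the start. The Tgtp2 sequence is chr11:49064213-49064462 on the minus strand, with 1 core that ends 60 bases before the start. The Ifit1 sequence is chr19:34640639-34640888 on the plus strand, with 2 cores, the last of which ends 75 bases before the start. The Gbp5 sequence is chr3:142496684-142496933 on the plus strand, with 1 core that ends 155 bases before the start. The ratios that go with these promoters are log2 2.39 for Ifi207, 2.30 for Tgtp2, 2.14 for Ifit1 and 2.10 for Gbp5.

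The core was searched on both strands of the 27025 promoters of the table and was found in 821, or 3.04%. Among the measured genes that matched the table, 188 of 7452 held it, or 2.52%. It was found in 13 of 35 matched type I interferon genes (37.1%), in 11 of 17 matched interferon gamma genes (64.7%) and in 3 of 20 matched MHC class I genes (15%). The gamma-activated site, TTCNNNGAA on either strand, was found in 1940 of all promoters (7.18%) and in 435 of the 7452 measured and matched (5.84%). It was found in 3 of the 35 type I genes (8.57%), 9 of the 17 interferon gamma genes (52.9%) and 2 of the 20 MHC class I genes (10.0%). Of the 12 genes highest for Cre over control in Nrg1-low cells, 7 matched the table. Among these 7, 1 held the core (14.3%) and 2 held the gamma-activated site (28.6%). The motifs overlapped each other in 17 promoters of the table, 6 of them of measured genes and 1 of a type I gene. Of the promoters printed, those of Gbp5 and Tgtp2 also hold the gamma-activated site, 2 times for Gbp5 and 1 time for Tgtp2. Tgtp2 and Ifi207 have near-identical relatives, so their counts are uncertain. The interferon lists were made of genes known to respond to interferon. Their motif shares therefore do not depend on the genotypes compared, and nothing about Cre is drawn from them. A match of letters is a description and does not show that a factor was bound.

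The MHC class I list covers the molecules that present peptides to cytotoxic T cells. In Cre Nrg1-low cells 18 of its 23 measured genes stood at least 1.5-fold higher and 0 lower, at a median of 1.32, against 1.35 in other fibroblasts. H2-K1, a classical heavy chain, had 2401 CPM in Cre and 430.3 CPM in control Nrg1-low cells, a ratio of 5.58 (5.36 to 5.80). H2-D1, the other classical heavy chain, had 3239 and 739.7 CPM. B2m, the shared light chain, had 2513 and 656 CPM, so heavy and light chains stood higher together. H2-Q6, a nonclassical heavy chain, had 392 CPM in Cre and 5.79 CPM in control Nrg1-low cells, and a UMI of it was found in 68.1% and 3.27% of them, against 50.3% and 1.49% of other fibroblasts. H2-Q7, its close neighbour, had 385 and 7.36 CPM, and reads of the near-identical H2-Q5, H2-Q6 and H2-Q7 may be split among them, so each one's level is uncertain. Tap1, a peptide transporter, had 98.7 and 26.8 CPM, and Nlrc5, the activator of class I genes, had 55 CPM in Cre and 9.41 CPM in control Nrg1-low cells.

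Thinned to 2000 UMIs each, the cells were also compared by their summed counts of each list. The median count of the MHC class I list was 22 UMIs per Cre Nrg1-low cell (quartiles 13 and 34; 407 cells) and 8 per control cell (5 and 10; 1058 cells). In other fibroblasts the medians were 18 (11 and 30) per Cre cell and 7 (5 and 10) per control cell. For the type I list the median was 21 UMIs (15 and 27) per Cre and 16 (12 and 22) per control Nrg1-low cell, against 18 and 12 in other fibroblasts. The quartile ranges of Cre and control cells did not overlap for MHC class I, in Nrg1-low cells and in other fibroblasts alike. For the type I list they overlapped in both pools. Cells of a library are not replicates, so these ranges are a description. For the interferon gamma list the medians were 7 UMIs (4 and 11) per Cre and 5 (3 and 7) per control Nrg1-low cell, with overlapping quartile ranges, against 12 and 7 in other fibroblasts.

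In the complement list 7 of 12 genes stood at least 1.5-fold higher in Cre Nrg1-low cells and 0 lower, at a median of 0.69, against 0.79 in other fibroblasts. Cfb, complement factor B, had 86.9 CPM in Cre and 10.1 CPM in control Nrg1-low cells, C2 had 51.5 and 11.7 CPM, and C3 555 and 147 CPM. The chemokine and cytokine list had 12 of 22 higher and 0 lower, at a median of 0.74, against 0.55 in other fibroblasts. Cxcl13, a B cell attractant, had 379.8 CPM in Cre and 96.7 CPM in control Nrg1-low cells and was found in 50% and 22.9% of them, against 29% and 12.9% of other fibroblasts. Cxcl10, a T cell attractant, had 417 and 119 CPM. Cx3cl1, the gene of fractalkine, had 29.2 and 5.91 CPM. The NF-kappaB and acute phase list had 8 of 21 higher and 0 lower, at a median of 0.25, against 0.63 in other fibroblasts. Saa3, an acute phase gene, had 49.4 CPM in Cre Nrg1-low cells, from 13 cells. Control Nrg1-low cells had 0 UMIs of Saa3, where a floor of 3 UMIs is 0.362 CPM. A UMI of Saa3 was found in 3.1% (1.66 to 5.23) of Cre and 0% (0 to 0.344) of control Nrg1-low cells. The Cre level rests on few cells, so no fold difference is given. Serpina3n, a protease inhibitor gene, had 626 and 135 CPM. Saa3, Serpina3f and Serpina3g have near-identical relatives, and their counts are uncertain.

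**Figure D4:**
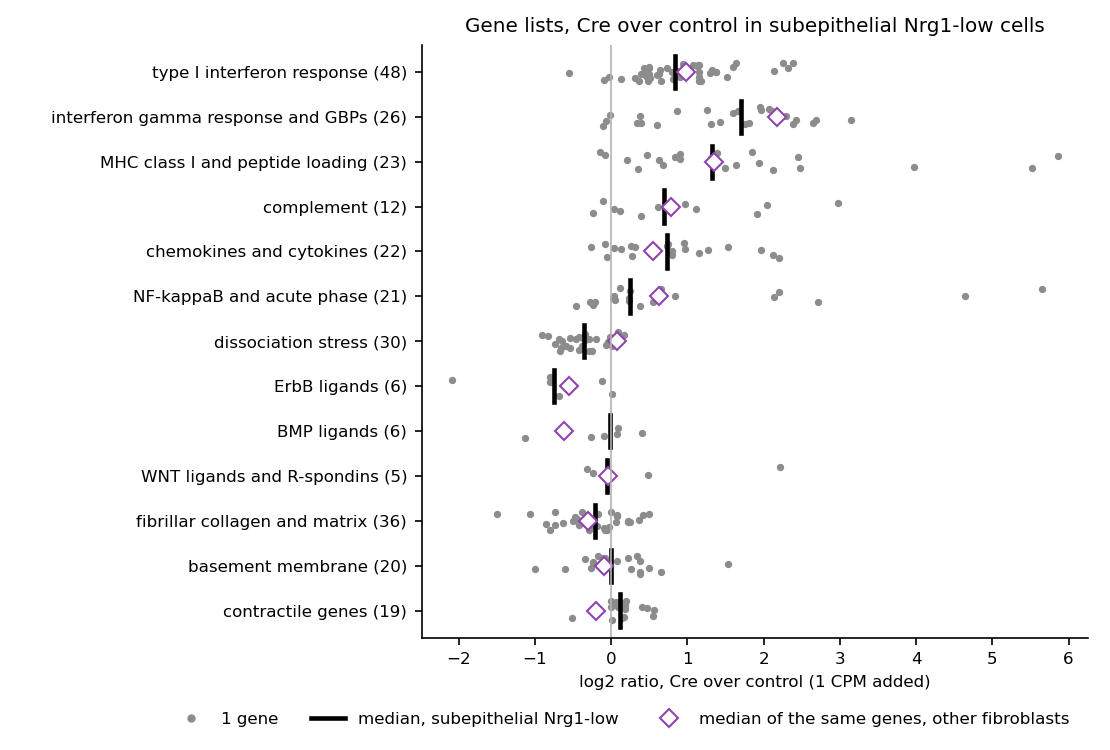
Log2 ratios of Cre over control (1 CPM added) of the genes of 13 lists in Nrg1-low cells; each grey point is 1 gene, the black bar their median and the open diamond the median of the same genes in other fibroblasts, with the number of genes in brackets. The interferon, MHC class I, complement and chemokine medians lie to the right of 0 in both pools, and those of the stress and BMP ligand lists differ between the pools. The BMP ligand list includes Bmp3, Bmp5 and Bmp7, which the rule used to pick the Nrg1-low cells, so its difference is partly set by the rule.

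Some early response genes that were at least 1.5-fold higher in Cre than in control other fibroblasts, Irf1, Socs1 and Cxcl1, were not so in Nrg1-low cells. These differences between the pools were not tested. Irf1, an interferon-induced factor, had 472 CPM in Cre and 493 CPM in control Nrg1-low cells, a log2 ratio of -0.06, against 0.78 in other fibroblasts. Socs1, a brake on interferon receptors, had 58.3 and 62.9 CPM, with log2 ratios of -0.11 and, in other fibroblasts, 0.69. Cxcl1, a neutrophil attractant, had 676 and 712 CPM, with log2 ratios of -0.08 and, in other fibroblasts, 1.04. Socs3, a STAT3 target that limits gp130 signalling, had 478 CPM in Cre and 719 CPM in control Nrg1-low cells, with log2 ratios of -0.59 and 0.21. Some genes known to respond to tissue dissociation stood lower, as Socs3 did, while Irf1, Socs1 and Cxcl1 differed little in Nrg1-low cells. Of 30 on the stress list, 8 were at least 1.5-fold lower in Cre Nrg1-low cells and 0 higher, at a median of -0.36, against 0.07 in other fibroblasts. Fos had 3999.7 CPM in Cre and 6336 CPM in control Nrg1-low cells, Junb had 2540.3 and 4225 CPM, and Dusp1 907 and 1696 CPM. Per cell thinned to 2000 UMIs, the stress list had a median of 52 UMIs (16 and 85.5) in Cre and 81.5 (47 and 113.8) in control Nrg1-low cells, against 82 in the other fibroblasts of either library. The part of dissociation stress in the values of Irf1, Socs1, Socs3 and Cxcl1 was not tested.

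Signalling genes of the BMP, WNT and ErbB pathways were also set side by side between the genotypes. Of 6 BMP ligands measured, rule genes included, 1 was lower and 0 higher at 1.5-fold in Cre Nrg1-low cells. That gene was Bmp2, with 188 CPM in Cre and 412 CPM in control Nrg1-low cells, a log2 ratio of -1.12 in Nrg1-low cells and of -0.73 in other fibroblasts. Id1, a target of BMP signalling, had 265 and 415 CPM, with log2 ratios of -0.65 and, in other fibroblasts, -1.13. Grem1 had 90.1 CPM in Cre and 43.2 CPM in control Nrg1-low cells, a log2 ratio of 1.04, and was the only one of 6 measured BMP antagonists past 1.5-fold. With at least 5 markers its log2 ratio was 0.29, and without the 13 Cre and 25 control cells that held a marker pair of another cell type it was 0.50, so the call does not hold there. Of 6 ErbB ligands 4 stood lower and 0 higher, at a median of -0.74, against -0.55 in other fibroblasts, and Nrg1, whose level the rule capped, is among the 4. Ereg had 128 CPM in Cre and 223 CPM in control Nrg1-low cells, and Areg, which encodes amphiregulin, had 8.92 and 41.2 CPM. When only cells with 0 UMIs of Nrg1 were pooled, the ErbB median was -0.29 and the log2 ratio of Ereg -0.41, both under 1.5-fold. The ErbB median was also under 1.5-fold at a minimum of 50 CPM (-0.458) and with no minimum (-0.366). In cells with Wif1 it was -0.579 and in cells without it -0.568, again under 1.5-fold. Ereg was under 1.5-fold with at least 3 markers (-0.553) and in cells with Wif1 (-0.542). Contractile genes had 0 of 19 members past 1.5-fold either way, with a median of 0.12, and WNT receptors and targets 0 of 15. Smoc1, which encodes a matricellular BMP modulator, was higher, at 50.3 CPM in Cre and 16.7 CPM in control Nrg1-low cells.

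Matrix genes leaned lower in Cre Nrg1-low cells. Of 36 fibrillar collagen and matrix genes 7 stood at least 1.5-fold lower and 0 higher, at a median of -0.21, against -0.31 in other fibroblasts. Postn, which encodes periostin, a matrix protein of remodelling tissue, had 516 CPM in Cre and 1454 CPM in control Nrg1-low cells, with log2 ratios of -1.49 and, in other fibroblasts, -1.42. Col3a1 had 1910.0 and 2657 CPM, which is under 1.5-fold. Ptgs2, the inducible prostaglandin synthase gene, had 98.2 CPM in Cre and 279 CPM in control Nrg1-low cells. The 12 genes that stood lowest in Cre Nrg1-low cells were H3c2, Cd36, Aldh3a1, Stmn2, H2ac8, Ociad2, Tubb4a, Thy1, Prrx2, Areg, Kctd8 and Ntf3. Cd36, a fatty acid receptor gene, had 3 UMIs in Cre and 267 UMIs in control Nrg1-low cells. These pools held 3362249 and 8287041 UMIs, so the raw counts overstate the gap. Stmn2, a regulator of microtubules, had 9.22 CPM in Cre and 136 CPM in control Nrg1-low cells, with log2 ratios of -3.75 and, in other fibroblasts, -3.71. H3c2 and H2ac8, histone genes, rest on few cells, since a single cell gave 93.3% and 70.6% of their control UMIs.

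Some genes separated the genotypes differently in Nrg1-low cells and other fibroblasts, and these differences were not tested. Rbp4, which encodes a carrier of retinol, had 907 CPM in Cre and 577 CPM in control Nrg1-low cells, against 27.7 CPM in Cre and 88.4 CPM in control other fibroblasts. Chsy3, a chondroitin synthase gene, had 1189 and 687 CPM, against 105 and 180.4 CPM. Both stood higher in Cre Nrg1-low cells and lower in Cre other fibroblasts. With Nrg1 or Myh11 at 0 the log2 ratio of Rbp4 in Nrg1-low cells was 0.52 or 0.47, under 1.5-fold. It was also under 1.5-fold with at least 3 markers (0.532), in cells with Wif1 (0.535) and in cells without it (0.544). Hpgd, which encodes an enzyme that inactivates prostaglandins, stood the other way, at 126 and 206 CPM in Nrg1-low cells, against 90.6 CPM in Cre and 53.9 CPM in control other fibroblasts. In cells without Wif1 the log2 ratio of Hpgd was 0.04, and with at least 3 markers it was -0.564, under 1.5-fold. Igfbp5, which encodes an IGF-binding protein, had 300.1 CPM in Cre and 151 CPM in control Nrg1-low cells, with log2 ratios of 0.98 and, in other fibroblasts, -0.35. In cells without Wif1 the log2 ratio of Igfbp5 was 0.15, and Cre Nrg1-low cells held a UMI of Wif1 more often, in 58.3% of cells, against 44.8% of control Nrg1-low cells. H2-K1, of the MHC class I list, had log2 ratios of 2.48 in Nrg1-low cells and 2.17 in other fibroblasts. The other fibroblasts are a mixture, and shifts in their makeup between the libraries cannot be told apart from changes within their cells.

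**Figure D5:**
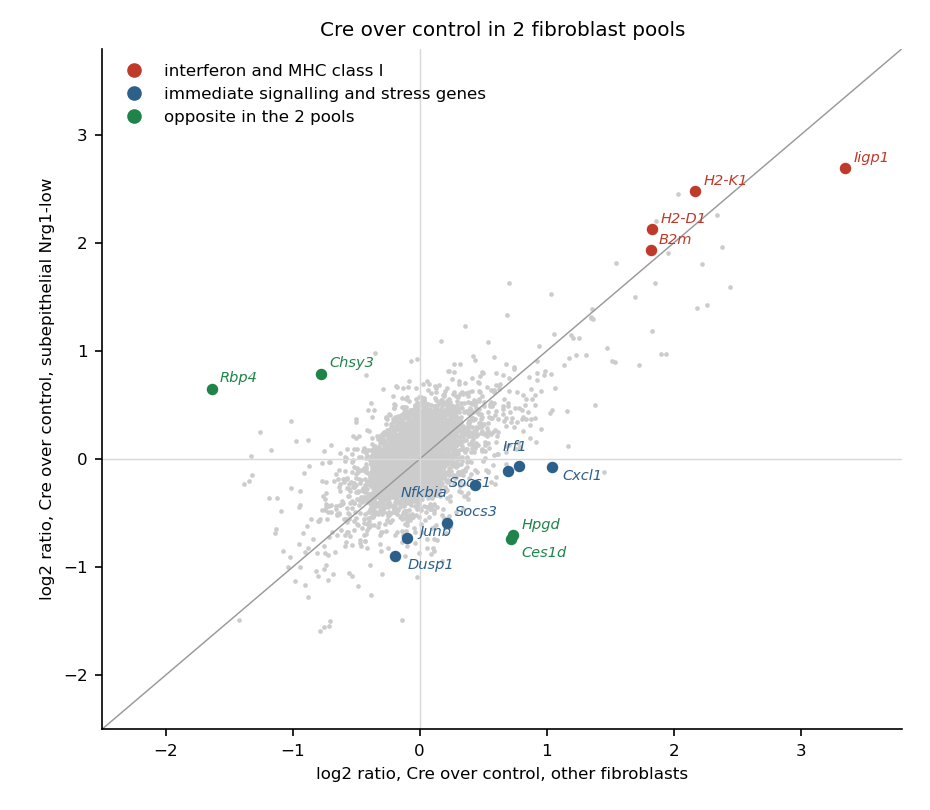
Log2 ratio of Cre over control (1 CPM added) in Nrg1-low cells against that in other fibroblasts, for 5838 genes; each point is 1 gene and the line marks equal ratios. H2-K1, H2-D1, B2m and Iigp1 are high in both pools, Irf1, Socs1 and Cxcl1 lie below the line, and Rbp4, Chsy3, Hpgd and Ces1d lie on opposite sides of 0 in the pools.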

How the data were processed

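Per the labels, single cells were captured with a 10x Genomics 5' v2 kit. The authors deposited a matrix of UMI counts for each library, as whole numbers that were not normalized. Cell Ranger 8.0.1 and the build GRCm39 are named in the submitters' processing notes. Both share 33696 features, of which 26 repeat a symbol (the first was used), and 0 per-sample columns were left unused.

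Cells were selected on UMIs of 11 genes with numpy 2.4.6, scipy 1.17.1 and pandas 2.3.3. Other fibroblasts had at least 2 UMIs of at least 3 of Col1a1, Col1a2, Col3a1, Dcn, Lum and Pdgfra, fewer than 4 of the 8 markers, fewer than 3 UMIs of Myh11, and no 2 markers with 2 UMIs of any of 8 other cell types. Doublets called with Scrublet in scanpy 1.11.5 (111 of 8413 Cre and 393 of 11050 control barcodes) were removed only as an alternative. UMIs were summed per library and pool and scaled to CPM. Log2 ratios had 1 CPM added, and a gene counted as measured where its mean over the pools compared was 10 CPM or more. No test was run, as each genotype had 1 library. Poisson, Clopper-Pearson and conditional binomial intervals are at 95%, and the floor of a count of 0 is 3 UMIs. Per-cell sums used cells thinned to 2000 UMIs. The steps were tested on simulated data. Figures were drawn with matplotlib 3.10.9.

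The members and the 31 gene lists were chosen with earlier results of these data known. Ranked genes were the 15 highest and 12 lowest over other fibroblasts, the 12 highest and 12 lowest for Cre over control, and the 6 largest differences between the pools each way, at 20 CPM or more. Of the lists for BMP, WNT, ErbB and hedgehog any measured gene could be named, and of the others the 3 highest, lowest and most abundant. Ifit1, Isg15, Gbp5, Tgtp2, Tap1, Nlrc5, Cxcl10, Lama4 and the genes of the Wif1 split were named after their values were seen. Alternatives changed the added CPM, the CPM minimum, the weight of cells, each threshold of the selection and the definition of other fibroblasts; 3 more, by Wif1 and without other types' marker pairs, were chosen after seeing the data.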

Additional observations from a re-analysis of the deposited data

Results flagged for a closer look

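Among 5663 genes with at least 20 CPM in Nrg1-low cells and other fibroblasts of both libraries, 4 differed at least 1.5-fold between the genotypes in opposite directions in the pools. The difference between the pools was not tested, since each genotype had 1 library. Rbp4 had a log2 ratio of Cre over control of 0.651 in Nrg1-low cells and of -1.64 in other fibroblasts. In Nrg1-low cells the Rbp4 ratio was under 1.5-fold in several alternatives, as given above. Chsy3 had 0.791 in Nrg1-low cells and -0.78 in other fibroblasts. Hpgd had -0.707 in Nrg1-low cells and 0.74 in other fibroblasts. Ces1d, a carboxylesterase gene, had -0.737 in Nrg1-low cells and 0.72 in other fibroblasts.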

How the results depend on the processing

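Of 14 alternatives to each median, none turned the medians of the type I interferon list (0.60 to 0.95), the interferon gamma list (1.38 to 1.85) or the MHC class I list (1.16 to 1.43) for Cre over control, nor those of contractile genes over other fibroblasts (1.504 to 2.129 in the Cre and 0.997 to 1.768 in the control library). Counts of genes at least 2-fold apart depended on the minimum and the added CPM. Over other fibroblasts 207 genes were higher at a minimum of 50 CPM and 738 without any minimum, with 151 and 556 lower; 212 were lower with 10 CPM added and 175 with at least 3 markers. For Cre over control 84 genes were higher with 10 CPM added, 43 at a minimum of 50 CPM, 442 without any and 208 in cells without Wif1, and 37, 19 and 341 were lower under the first 3 of these. The share of Nrg1-low cells among fibroblasts was lower in the Cre library under every alternative run: 7.66% and 15.7% with at least 3 markers, 4.93% and 9.39% with at least 5, 4.79% and 8.24% with Nrg1 at 0, 4.94% and 9.25% with Myh11 at 0, 6.68% and 14.5% when other fibroblasts had at most 1 marker, and 7.16% and 15.2% when they had Pdgfra. In the control library it was 10.5% with cells thinned first and 10.8% without doublets.

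Direction changed in some results, and the cause was not tested. Of list medians under 1.5-fold, 10 of 22 in the Cre and 12 of 24 in the control library over other fibroblasts, BMP antagonists in both among them, and 11 of 25 for Cre over control had the other sign under at least 1 alternative. Of values at least 1.5-fold apart, those that turned over other fibroblasts were the BMP ligand median in the Cre library (-0.025 with no minimum), the WNT ligand median in the Cre library (0.758 at 50 CPM) and the ErbB median in the control library (-0.140 at 50 CPM). Single genes over other fibroblasts were, with at least 3 markers, Saa3 (1.291), Aldh3a1 (0.262) and Prrx2 (0.097) in the control and Stmn2 (0.296) in the Cre library, and H3c2 (-0.480) in the control library with cells thinned. For Cre over control they were Gdf10 (-0.091 with at least 5 markers, -0.056 thinned), Myoc (-0.288 with at least 5 markers), Sfrp2 (0.059 with at least 3), Sfrp4 (0.575 with at least 3, 1.532 thinned, 0.463 with Wif1), H2ac8 (0.720 with Wif1) and Hpgd (0.041 without Wif1). No paired analysis was possible because each genotype has 1 library, and for the same reason no library could be left out.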

Other observations

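Other gene groups were also measured in Nrg1-low cells, and the genes named for them here were chosen after their values were seen. Of 12 retinoid genes, 5 were at least 1.5-fold higher and 2 lower than in other fibroblasts in both libraries. Rdh10, which encodes an enzyme of the first step from retinol to retinoic acid, had 121 CPM in Cre and 104 CPM in control Nrg1-low cells, against 43.5 and 55.2 CPM in other fibroblasts. Of 20 matrix protease and inhibitor genes, 3 were higher and 9 lower in both libraries. Their median log2 ratio was -0.67 in the Cre and -0.68 in the control library, so the list leaned lower. Among the higher genes, Adamdec1, which encodes a metalloprotease of the gut stroma, had 2273 CPM in Cre and 2046 CPM in control Nrg1-low cells, against 890.4 and 1028 CPM. Mmp10, a stromelysin gene also among the higher, had 58.6 and 30.8 CPM, against 0.0353 and 0.996 CPM. Of 26 growth factor genes and receptors outside the rule, 2 were higher and 6 lower, with medians of -0.11 in the Cre and -0.33 in the control library. Inhba, which encodes an activin subunit and was among the higher, had 41.3 CPM in Cre and 46.8 CPM in control Nrg1-low cells, against 6.42 and 13.3 CPM. Of 12 prostanoid genes, 2 were higher and 0 lower, among them Ptgs1, the constitutive cyclooxygenase gene, with 135 and 182 CPM, against 32.2 and 54.4 CPM. Axon guidance genes were split, with 8 of 24 higher and 8 lower.

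For Cre over control in Nrg1-low cells, 0 of 11 prostanoid genes were at least 1.5-fold higher and 2 lower, and 2 of 20 matrix protease and inhibitor genes were higher and 7 lower. Of 25 transcription factor genes of gut mesenchyme, 0 were higher and 5 lower. Of 14 genes of the IL-10 and gp130 receptor pathways, 3 were higher and 1, Socs3, lower. Of 12 retinoid genes, 2 were higher and 1 lower. Of 3 cell cycle genes measured, 0 passed 1.5-fold either way.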
